A study of Mus musculus with 96 samples.

Results

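Mouse intestinal organoids collected late in a circadian time course were set against organoids collected early in it, and the genes that moved the same way in all 4 genotypes were described. Early libraries were those of 24, 26 and 28 h after a dexamethasone pulse, and late libraries were those of 42, 44 and 46 h. The windows took in 41 of the 88 RNA-seq libraries in the deposited tables, 20 early and 21 late. Levels are in TPM, a transcript abundance scaled for gene length and library total, and changes are late minus early means of log2(TPM + 1). A gene was tested where its mean reached 1 TPM in every genotype, as for 11135 of 55536. A change is called shared below when its adjusted p was under 0.05 over the 4 genotypes (limma, genotype as a block, Benjamini-Hochberg adjustment over all genes tested) and its sign was the same in each genotype. "Rose" and "fell" are used for shared changes only.

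The organoids were primary cultures of C57BL/6 mice, and each genotype was represented by 2 lines. Control organoids were APC+/+;BMAL1+/+ (5 early and 5 late libraries), and Bmal1-null organoids were APC+/+;BMAL1-/- (6 and 5). Apc-min organoids, which the labels call adenoma organoids, were APCmin/-;BMAL1+/+ (4 and 6), and double-mutant organoids were APCmin/-;BMAL1-/- (5 and 5), drawn as Apc-min Bmal1-null in the plots. All 4 received 0.1 µM dexamethasone for 1 h and then fresh medium. The medium of the APCmin genotypes was EN and that of the others ENR, where R stands for R-spondin, a Wnt agonist, and the APCmin libraries carry their own range of library numbers. Apc genotype, medium and library series therefore cannot be told apart. Library numbers also rise with time, so time and library order cannot be told apart. Which line gave which library is not given in the sources used here, so p-values measure the spread between libraries, which may in part be technical. The windows fall at different phases of the day, and a single cycle was sampled, so a daily rhythm and a steady drift cannot be told apart from them.

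A pair of libraries of 28 h, 1 labelled as Apc-min and 1 as double mutant, was left out of the results below. Arntl, which encodes BMAL1, was at 4.09 TPM in the first and at 14.7 TPM in the second. In the libraries kept, Arntl ranged from 7.20 to 16.9 TPM in Apc-min and from 2.89 to 6.06 TPM in double-mutant organoids, so each left-out value lay in the range of the other genotype. Arntl ranged from 11.3 to 18.9 TPM in control and from 6.31 to 9.82 TPM in Bmal1-null libraries. The deleted part of the gene is not given, so these levels do not by themselves check the deletion. With both left-out libraries returned under their labels, 1439 genes changed alike, of which 1384 were among those described here.

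Intestinal epithelium renews from Wnt-driven stem cells that express Lgr5 and sit beside Paneth cells, which secrete antimicrobial proteins. Organoids grow as closed epithelial spheres or budded structures in gel, and oxygen and nutrients reach them by diffusion from the medium. When oxygen falls, prolyl hydroxylases stop marking hypoxia-inducible factor (HIF) for destruction, and HIF with its partner binds DNA at a core of ACGTG and raises genes of glycolysis, lactate export and vessel growth. Keratins, annexins and targets of the transcriptional co-activator YAP are high in epithelium that spreads or regenerates. Dexamethasone is a glucocorticoid that sets cellular clocks in step.

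The stretches of DNA just before the starts of 4 of the most raised genes are shown because each holds the ACGTG core, and that of Adh1 because it holds none although Adh1 is among the largest rises. Each is 250 bases long and ends at the base before the RefSeq transcript start of GRCm38.p6, written 5′ to 3′ on the gene's own strand. Capitals mark ACGTG or its reverse complement CACGT; where they overlap, capitals run on as CACGTG.
Egln3: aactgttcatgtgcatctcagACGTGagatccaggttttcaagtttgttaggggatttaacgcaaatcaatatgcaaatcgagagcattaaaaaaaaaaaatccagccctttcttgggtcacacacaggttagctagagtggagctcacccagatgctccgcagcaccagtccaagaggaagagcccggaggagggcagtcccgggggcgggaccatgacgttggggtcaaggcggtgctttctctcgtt
Ankrd37: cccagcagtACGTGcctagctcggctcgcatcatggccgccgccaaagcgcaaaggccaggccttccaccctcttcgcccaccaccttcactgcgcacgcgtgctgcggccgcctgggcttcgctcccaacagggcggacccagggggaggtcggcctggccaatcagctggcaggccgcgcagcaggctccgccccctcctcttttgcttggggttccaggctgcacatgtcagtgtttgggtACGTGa
Bnip3: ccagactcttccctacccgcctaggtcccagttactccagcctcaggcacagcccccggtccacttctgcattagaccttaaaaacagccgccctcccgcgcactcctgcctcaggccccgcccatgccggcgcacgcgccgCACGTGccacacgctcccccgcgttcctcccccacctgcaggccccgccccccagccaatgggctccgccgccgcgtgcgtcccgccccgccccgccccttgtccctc
Slc16a3: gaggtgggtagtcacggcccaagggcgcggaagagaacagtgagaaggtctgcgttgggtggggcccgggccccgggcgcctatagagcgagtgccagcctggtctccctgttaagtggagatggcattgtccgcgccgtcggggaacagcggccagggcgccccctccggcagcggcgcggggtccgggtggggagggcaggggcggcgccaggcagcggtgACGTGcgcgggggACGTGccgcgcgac
Adh1: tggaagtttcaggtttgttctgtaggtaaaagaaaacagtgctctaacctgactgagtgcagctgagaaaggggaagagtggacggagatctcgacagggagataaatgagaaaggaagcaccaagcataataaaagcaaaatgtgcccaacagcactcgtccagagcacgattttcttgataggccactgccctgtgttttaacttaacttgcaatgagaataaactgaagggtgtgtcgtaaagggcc
They lie at chr12:54203875-54204124 (minus strand, Egln3), chr8:45999851-46000100 (minus strand, Ankrd37), chr7:138909507-138909756 (minus strand, Bnip3), chr11:120948817-120949066 (plus strand, Slc16a3) and chr3:138277335-138277584 (plus strand, Adh1). A gene was counted when the 250 bases before any of its RefSeq starts held the core on either strand. The core was found in 8 of the 10 genes matched among the 12 largest rises and in none of the 9 matched among the 12 largest falls. Among the genes tested 26.1% of the 8528 matched held it, and among all shared rises 26.2% of 897. Among all 32851 RefSeq promoters it was 16.6%, but there each start counts singly, so that share is not comparable with those of genes. Of the rises that were larger in the APCmin genotypes 25.5% held it, and of the other rises 26.4%. A match describes letters in this window and is not a binding site.

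Of the 11135 genes tested, 2535 (22.8%) differed between late and early libraries, and 1852 (16.6%) did so with the same sign in all 4 genotypes. Of these, 1164 rose (10.5% of the genes tested) and 688 fell (6.18%). Another 683 genes were called with mixed signs. Irrespective of the call, 25.8% of the genes tested had 1 sign in all 4 genotypes, 14.4% upward and 11.4% downward. Most shared changes were small: 20 rises and 4 falls were 2-fold or more, and 80 rises and 20 falls were 1.5-fold or more. The median rise was 0.25 on the log2 scale and the median fall -0.20, and the median of all genes tested was 0.02.

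The direction of the balance depended on the scaling. On the deposited TPM scale 62.9% of shared changes were rises, against 46% after median-of-ratios scaling of the same values and 46.7% in the authors' quantile-normalized tables. The median of all genes moved by less than 0.1 under either. Of the 1852 shared genes 1473 were also shared after median-of-ratios scaling.

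Shared changes had the smallest medians in control. The median shared rise was 0.12 in control, 0.21 in Bmal1-null, 0.40 in Apc-min and 0.29 in double-mutant organoids, and the median shared fall was -0.15, -0.19, -0.26 and -0.17 in the same order. Control had the smallest of the 4 changes in 860 of the 1852 genes, 46.4%. Tested alone in the same tool, late against early differed in 7 genes in control (0.0629%, with 725, or 6.51%, at an unadjusted p under 0.05), 1057 in Bmal1-null (9.49%), 1087 in Apc-min (9.76%) and 1351 in double-mutant organoids (12.1%). The count in Apc-min was 3 without its 24 h library and 1785 without its lower-numbered 26 h library. The count in control was 0 without 7 of its 10 libraries in turn and 16 without its higher-numbered 24 h library. From the 2 genotypes wild type for Apc alone, 659 of the 1852 genes were called with a common sign.

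**Figure D1:**
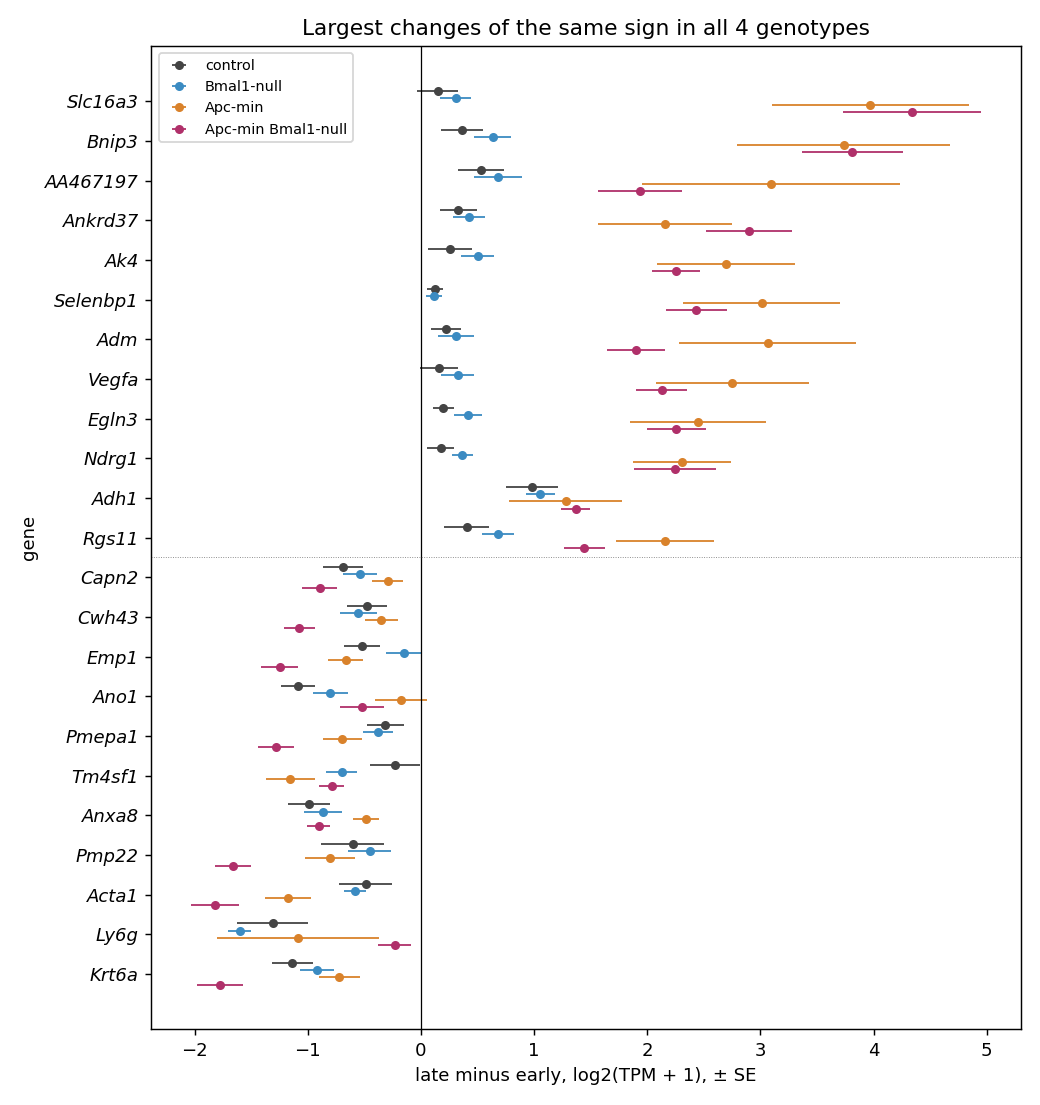
Late minus early difference on the log2(TPM + 1) scale (x axis) for the 12 largest shared rises and 11 of the 12 largest shared falls, 1 row a gene. Points are the estimate in each genotype and bars its standard error. The rises from Slc16a3 (0.15 in control, 4.34 in double mutants) to Ndrg1 spread widely between the genotypes, while those of Adh1 lie between 0.98 and 1.37.

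Genes of the response to low oxygen and of glycolysis made up most of the largest rises. Slc16a3, the lactate exporter MCT4, was at 63.2, 66.8, 87.1, 110 and 117 TPM in the early control libraries and at 80.7, 82.7, 94.5, 96.1 and 131 TPM in the late ones. Bnip3, a HIF target that marks mitochondria for removal, was at 23.5, 31.2, 42.2, 42.4 and 48.0 TPM early and 36.8, 40.0, 47.9, 56.4 and 57.8 TPM late in control. In control the windows overlapped for both genes.

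In the APCmin genotypes the same genes started near 0. Slc16a3 was at 1.59, 1.85, 5.33 and 104 TPM in the 4 early Apc-min libraries and between 88.6 and 168 TPM (median 145) in the 6 late ones. In double-mutant organoids it was at 0.34, 0.40, 0.74, 0.75 and 16.6 TPM early and at 27.4, 48.5, 52.1, 62.2 and 71.6 TPM late. In Bmal1-null organoids it lay between 55.4 and 91.7 TPM (median 71.5) early and at 77.3, 80.5, 82.6, 94.3 and 114 TPM late. The windows were apart in double-mutant organoids and overlapped in the others. Over the 4 genotypes Slc16a3 rose by 2.13 ± 0.42 (SE, limma adjusted p = 0.000253), with changes of 0.15 in control, 0.31 in Bmal1-null, 3.97 in Apc-min and 4.34 in double mutants. From the genotypes wild type for Apc alone its change was 0.23 and was not called.

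The Apc-min library of 26 h with 104 TPM of Slc16a3 is the lower-numbered of its time point, and the other 3 early Apc-min libraries are the higher-numbered ones of theirs. Among the higher-numbered libraries alone, Slc16a3 was at 1.59 to 5.33 TPM in the 3 early and 88.6 to 168 TPM in the 3 late Apc-min libraries. Among the lower-numbered ones it was at 104 TPM in the 1 early and 141 to 155 TPM in the 3 late libraries. Bnip3 in that 26 h library was at 281 TPM, against 5.42 to 10.4 TPM in the other 3 early ones and 130 to 512 TPM late. For Slc16a3 the late libraries were thus above the early ones in both sets, and the start was higher in the lower-numbered set.

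Bnip3 rose by 2.09 ± 0.38 (adjusted p = 8.72e-05), from 0.36 in control to 3.81 in double-mutant organoids. AA467197, a small mitochondrial protein gene also known as Nmes1, rose by 1.53 ± 0.35, and its smallest change of the 4 was 0.53, in control. Ankrd37, a HIF target, rose by 1.42 ± 0.26, and Ak4, a mitochondrial adenylate kinase, by 1.40 ± 0.24. Selenbp1, a methanethiol oxidase of mature enterocytes, rose by 1.38 ± 0.28, but in control it was at 197 to 240 TPM early and 229 to 256 TPM late. The secreted factors Adm (adrenomedullin) and Vegfa (vascular endothelial growth factor) rose by 1.33 ± 0.28 and 1.31 ± 0.26. Egln3, the prolyl hydroxylase that HIF itself induces, rose by 1.3 ± 0.24, and Ndrg1, a stress-induced gene, by 1.24 ± 0.22. Rgs11, a regulator of G protein signalling, rose by 1.15 ± 0.17.

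Vegfa had the same pattern. It was at 8.92, 9.87, 11.1 and 96.4 TPM in the early Apc-min libraries and between 55.2 and 233 TPM (median 160) in the late ones. In control it was at 88.3, 94.1, 96.2, 142 and 152 TPM early and at 104, 118, 119, 126 and 167 TPM late. In double-mutant organoids it was between 5.26 and 12.1 TPM (median 10.4) early and between 28.4 and 62 TPM (median 42.8) late. Late levels of Vegfa thus spanned the control range in Apc-min organoids and lay below it in double mutants, and early levels of both, other than that 26 h library, lay below it.

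Of the 24 tested members of the list of glycolysis and hypoxia genes, 14 rose (58.3%, against 10.5% of all genes tested) and none fell. Another 9 were called with mixed signs. The rises numbered 12 after median-of-ratios scaling and 13 on the quantile-normalized scale. The median change over the list was 0.52, against 0.02 for all genes tested, and was 0.05 in control, 0.11 in Bmal1-null, 1.18 in Apc-min and 0.83 in double-mutant organoids. Pdk1, which keeps pyruvate out of mitochondria, rose by 0.91 ± 0.15, and P4ha1, a collagen prolyl hydroxylase, by 0.88 ± 0.14. Pfkfb3, which speeds glycolysis through fructose 2,6-bisphosphate, rose by 0.76 ± 0.12. Among the enzymes of the pathway itself, Ldha rose by 0.42 ± 0.08, Tpi1 by 0.41 ± 0.08, Pgk1 by 0.41 ± 0.10, Gapdh by 0.28 ± 0.06 and Eno1 by 0.25 ± 0.06. In 23 of the 24 members the change was more upward in the APCmin genotypes by the limma contrast, against 12.6% of all genes tested.

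Adh1, a class I alcohol dehydrogenase that oxidises retinol and ethanol, rose by similar amounts in the 4 genotypes although its level differed widely between them. It was at 97.3, 124, 199, 214 and 221 TPM in the early control libraries and at 260, 280, 286, 400 and 423 TPM in the late ones. In Bmal1-null organoids it lay between 115 and 174 TPM (median 145) early and at 227, 301, 315, 329 and 348 TPM late. The windows did not overlap in either.

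In Apc-min organoids Adh1 was at 2.86, 3.20, 3.39 and 11.8 TPM early and between 5.87 and 25 TPM (median 14) late, where the 26 h library lay among the late values. In double-mutant organoids it was at 1.39, 1.93, 2.26, 2.47 and 2.55 TPM early and at 5.78, 6.39, 7.27, 7.58 and 8.13 TPM late, without overlap. Adh1 rose by 1.17 ± 0.15 (limma adjusted p = 4.08e-07), with changes of 0.98, 1.06, 1.28 and 1.37 in control, Bmal1-null, Apc-min and double-mutant organoids. The difference of its change by Apc was 0.30 ± 0.31 (adjusted p = 0.54).

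**Figure D2:**
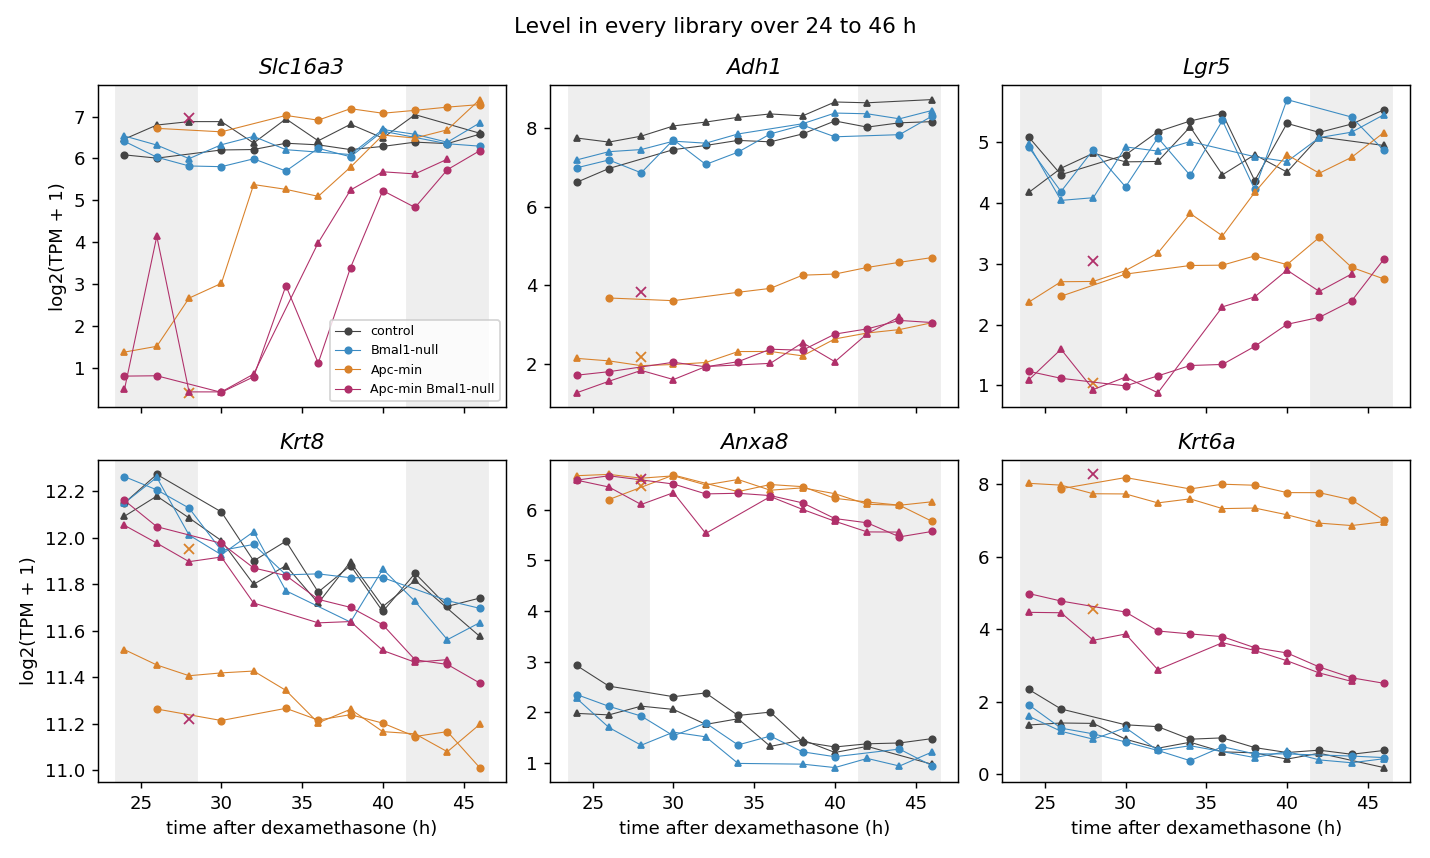
Level on the log2(TPM + 1) scale (y axis) against time after dexamethasone in h (x axis) of 6 genes in every library, circles for the lower-numbered and triangles for the higher-numbered library of a time point. Lines join libraries of 1 set, grey bands are the 2 windows and crosses are the pair of libraries left out. Adh1 climbs and Krt8 and Anxa8 decline in all 4 genotypes, while Slc16a3 climbs from under 6 TPM in the higher-numbered Apc-min libraries and stays between 55.4 and 131 TPM in the windows of control and Bmal1-null organoids.

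Some genes of stem cells and of Wnt signalling rose, and none fell. Lgr5, the R-spondin receptor that marks intestinal stem cells, was at 17, 21, 22.7, 27.1 and 32.8 TPM early and 29.7, 32.8, 34.6, 38.1 and 45 TPM late in control. In double-mutant organoids it was at 0.91, 1.13, 1.17, 1.35 and 2.02 TPM early and 3.34, 4.23, 4.83, 6.11 and 7.41 TPM late. In Apc-min organoids it lay at 4.16, 4.52, 5.51 and 5.53 TPM early and between 5.72 and 34.5 TPM (median 15.6) late. The windows were apart in both APCmin genotypes and overlapped in control. Lgr5 rose by 0.99 ± 0.15 (adjusted p = 1.01e-05), with changes of 0.58, 0.68, 1.36 and 1.40 in control, Bmal1-null, Apc-min and double-mutant organoids, and the difference by Apc was not called (adjusted p = 0.072).

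Of the 15 tested Wnt targets 6 rose (40%, against 10.5% of all genes tested) and none fell, with a median of 0.15. After median-of-ratios scaling 6 rose and 1 fell. Sp5, a direct Wnt target, rose by 0.38 ± 0.05 and by 0.52, 0.31, 0.28 and 0.41 in control, Bmal1-null, Apc-min and double-mutant organoids. Axin2, the feedback inhibitor of the pathway, rose by 0.35 ± 0.07, Tnfrsf19 (TROY) by 0.30 ± 0.10, the guidance receptor gene Ephb3 by 0.22 ± 0.04 and the stem cell regulator Ascl2 by 0.21 ± 0.07. Of 11 tested stem cell genes 5 (45.5%) rose and none fell. Among them Lrig1, an inhibitor of EGF receptors, rose by 0.36 ± 0.08, and Prom1 by 0.16 ± 0.05. After median-of-ratios scaling 3 rose. Lgr5, Tnfrsf19 and Ascl2 are on the stem cell list too, so its count and that of the Wnt targets are not separate. The median change over the stem cell list was 0.22 in control, 0.23 in Bmal1-null, 0.02 in Apc-min and 0.44 in double-mutant organoids.

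Of the 6 tested Paneth cell genes 5 rose (83.3%, against 10.5% of all genes tested), with a median of 0.66. The rises numbered 5 after median-of-ratios scaling and 4 in the quantile-normalized tables. Lyz1, Paneth cell lysozyme, was between 2759 and 3095 TPM (median 2937) in early and 3040 and 3643 TPM (median 3430) in late control libraries. In Apc-min organoids it was at 28.1 to 51.5 TPM early and 85.3 to 151 TPM late. Lyz1 rose by 0.90 ± 0.14, with 0.21 in control and 1.77 in double-mutant organoids; its near copy Lyz2 could share reads with it. The secreted phospholipase gene Pla2g2a rose by 0.74 ± 0.13, the pentraxin gene Mptx2 by 0.68 ± 0.22, the lectin gene Itln1 by 0.63 ± 0.10 and the protease gene Mmp7 by 0.49 ± 0.09. In bulk RNA, more cells of a type and more RNA per cell cannot be told apart.

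No member of the goblet or tuft cell lists, with 4 and 1 tested, was shared in either direction. Of 3 tested digestive enzymes of the brush border, the peptidases Anpep and Ace rose (66.7%, against 10.5% of all genes tested). Their changes were 0.80 ± 0.23 and 0.63 ± 0.12. Pigr, which carries antibodies across the epithelium, rose by 0.82 ± 0.20, with 0.10 in control and 1.85 in double-mutant organoids.

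The falls were led by genes of keratin filaments, annexins and cell contacts. Krt8, a main keratin of simple epithelium, was at 4345, 4367, 4544, 4638 and 4948 TPM in early control libraries and at 3052, 3337, 3421, 3606 and 3684 TPM in late ones. In Bmal1-null organoids it was between 4129 and 4915 TPM early and at 3022, 3179, 3318, 3387 and 3396 TPM late. In Apc-min organoids it was at 2457, 2714, 2802 and 2933 TPM early and between 2063 and 2347 TPM late, and in double-mutant organoids at 3814, 4031, 4233, 4250 and 4578 TPM early and 2655, 2807, 2825, 2846 and 2847 TPM late.

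Each late library of every genotype was thus below each early one of that genotype. Krt8 fell by 0.45 ± 0.03 on the log2 scale (adjusted p = 2.02e-12), and its partner Krt18 fell by 0.26 ± 0.03. Such a separation in all 4 genotypes was seen for 6 genes downward (0.0539% of the genes tested) and for 2 upward (0.018%), named here after their values were seen. The other falls were Anxa2 (-0.46 ± 0.04), Anxa8 (-0.81 ± 0.08) and Anxa3 (-0.51 ± 0.06), all annexins, which bind membranes in the presence of calcium, the lipid phosphatase gene Plpp2 (-0.28 ± 0.03) and the ESCRT gene Chmp6 (-0.24 ± 0.03). The rises were Mab21l3 (0.78 ± 0.07) and the lysosomal galactosidase gene Glb1 (0.46 ± 0.05). Glb1 was at 99 to 119 TPM early and 120 to 137 TPM late in control, and at 16.5 to 19.2 TPM early and 22.6 to 26.3 TPM late in double-mutant organoids.

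Krt6a, a keratin of activated and spreading epithelium, fell most. It was at 1.57, 1.65, 1.67, 2.49 and 4.07 TPM early and 0.14, 0.47, 0.50, 0.58 and 0.59 TPM late in control, and between 0.96 and 2.78 TPM early and 0.25 and 0.42 TPM late in Bmal1-null organoids. In Apc-min organoids it was at 211, 233, 249 and 258 TPM early and between 115 and 216 TPM (median 126) late, and in double-mutant organoids at 11.9, 20.9, 21.1, 26.4 and 30.6 TPM early and 4.70, 4.91, 5.33, 5.94 and 6.78 TPM late. The windows overlapped in Apc-min organoids alone. Krt6a fell by 1.14 ± 0.11 on the log2 scale (adjusted p = 2.13e-09), and reads of its near copy Krt6b could be split with it.

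Anxa8 was at 2.85, 2.93, 3.34, 4.71 and 6.58 TPM early and 0.96, 1.5, 1.59, 1.62 and 1.78 TPM late in control. In Apc-min organoids it was at 72.7, 97.7, 101 and 103 TPM early and between 53.7 and 70.4 TPM late. Levels of Anxa8 were thus far higher in the APCmin genotypes, and the direction over time was the same.

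Among the other large falls, the GPI-anchored protein gene Ly6g fell by 1.07 ± 0.22, unevenly: its change was -1.60 in Bmal1-null and -0.23 in double-mutant organoids, where the windows overlapped. Acta1, skeletal muscle actin, fell by 1.00 ± 0.13, the membrane protein gene Pmp22 by 0.87 ± 0.14 and the tetraspanin-like gene Tm4sf1 by 0.71 ± 0.10. Pmepa1, a feedback inhibitor of TGF-beta signalling, fell by 0.66 ± 0.10 and the chloride channel gene Ano1 by 0.65 ± 0.11. Emp1, an epithelial membrane protein, fell by 0.63 ± 0.10, Cwh43 by 0.61 ± 0.09 and the calpain gene Capn2 by 0.60 ± 0.09.

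Of the 10 tested YAP targets and genes of fetal epithelium, 7 fell (70%, against 6.18% of all genes tested) and none rose, with a median of -0.43. Under the other scalings 8 and 7 fell. Clu, clusterin, which marks revival stem cells, fell by 0.59 ± 0.11. It was between 14.2 and 16.9 TPM early and 8.93 and 12.7 TPM late in control, and between 388 and 460 TPM early and 293 and 576 TPM late in Apc-min organoids, so that the windows were apart in control and overlapped in Apc-min. Anxa1 fell by 0.55 ± 0.07, the mesothelin gene Msln by 0.51 ± 0.08 and the interleukin 1 receptor antagonist gene Il1rn by 0.45 ± 0.12. Ajuba, a LIM protein of the Hippo pathway, fell by 0.42 ± 0.06, the EGF receptor ligand gene Areg by 0.41 ± 0.06 and Amotl2 by 0.28 ± 0.09. Clu, Msln and Anxa1 changed by -0.07, -0.06 and -0.20 in Apc-min organoids and by -0.61, -0.78 and -0.87 in control. The change of Msln differed by Apc (adjusted p = 0.000227).

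Of the 17 tested genes of the cytoskeleton and serum response, 7 fell (41.2%, against 6.18% of all genes tested) and none rose, with a median of -0.19. Under the other scalings 10 and 8 fell. Actb, cytoplasmic beta-actin, fell by 0.35 ± 0.07, the tubulin genes Tuba1c and Tubb4b by 0.26 ± 0.05 and 0.20 ± 0.05, and profilin, Pfn1, by 0.20 ± 0.03. Of 18 tested immediate early genes 3 rose (16.7%, against 10.5% of all genes tested) and 2 fell (11.1%, against 6.18%). Fosl1, an AP-1 subunit gene, fell by 0.52 ± 0.10. Jun, another AP-1 subunit gene, rose, with changes of 0.09 to 0.46 over the alternative settings. AP-1 binds TGANTCA, where N is any base. Over both strands 7.08% of the matched genes among the falls held those letters, 6.13% of the rises and 5.15% of the genes tested. Among the rises larger in the APCmin genotypes 7.79% held them, and among all RefSeq promoters, each counted singly, 6.75%. Whether these shares differ was not tested.

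**Figure D3:**
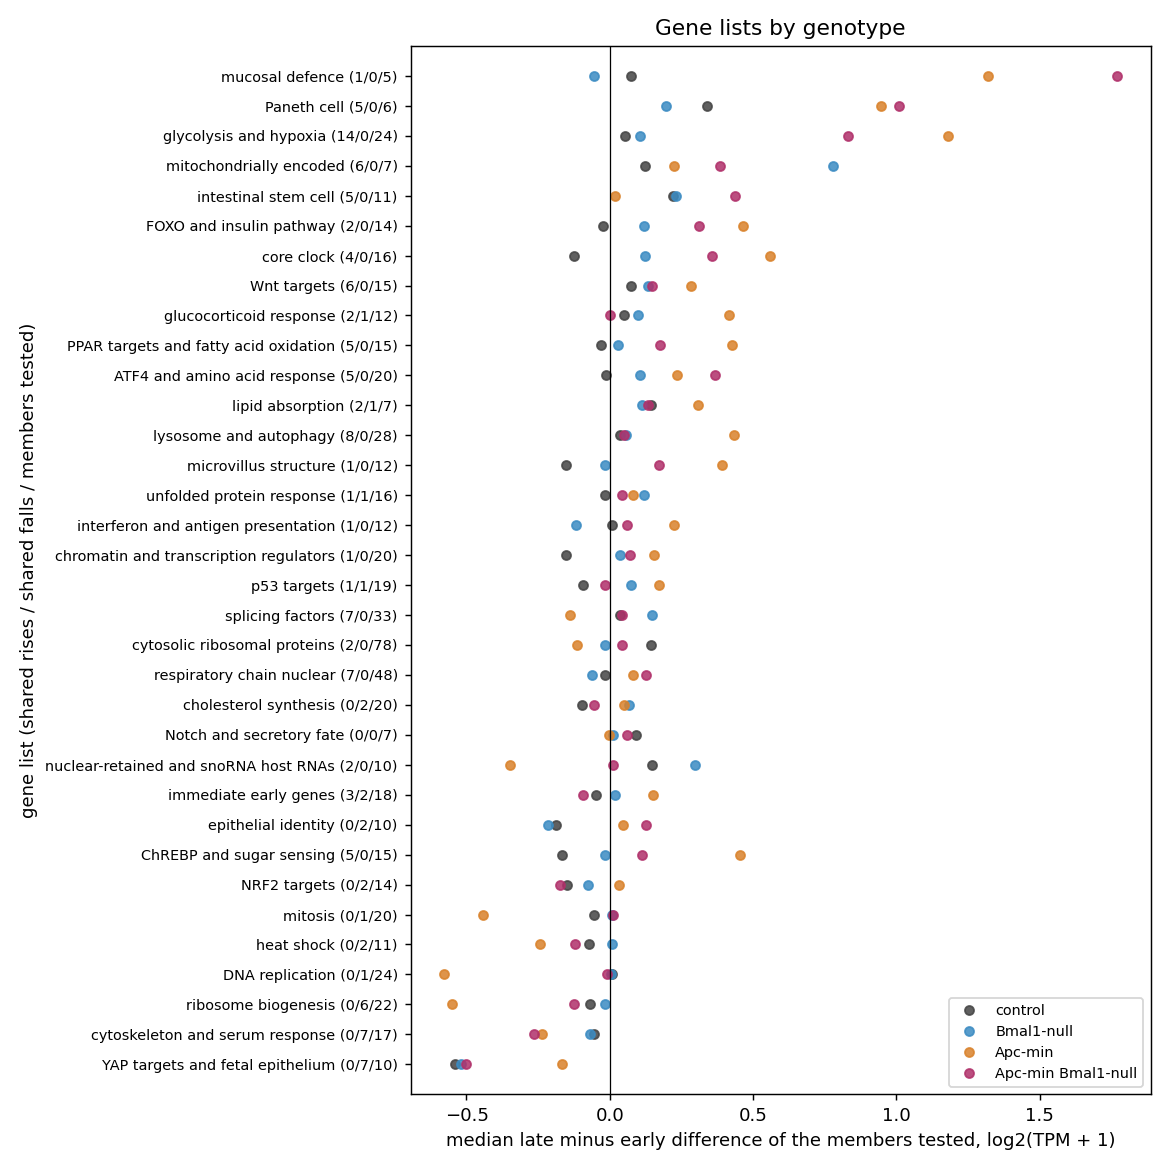
Median late minus early difference on the log2(TPM + 1) scale (x axis) over the tested members of each gene list with 5 or more tested, 1 point a genotype. The label of each list gives its shared rises, shared falls and members tested. Glycolysis and hypoxia genes lie at 0.05 in control and 1.18 in Apc-min organoids, and YAP targets lie below 0 in all 4 genotypes.

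Among genes of metabolism and organelles, 8 of 28 tested lysosome and autophagy genes rose (28.6%, against 10.5% of all genes tested) and none fell (6 and 5 under the other scalings). Lamp2, a lysosomal membrane protein gene, rose by 0.38 ± 0.07, and Hexa, a hexosaminidase subunit gene, by 0.33 ± 0.09. Of 15 tested genes of sugar sensing 5 (33.3%) rose, among them Khk, fructokinase, by 0.54 ± 0.09, although the list's median was -0.03. After median-of-ratios scaling 4 rose and 1 fell, and on the quantile-normalized scale 5 rose and 1 fell. Of 15 tested PPAR targets 5 (33.3%) rose, led by Ehhadh (0.32 ± 0.07) and Ech1 (0.26 ± 0.05), enzymes of fatty acid oxidation, against 4 and 6 under the other scalings. Of 20 tested genes of the amino acid response 5 (25%) rose, led by Vldlr (0.76 ± 0.16), Stc2 (0.57 ± 0.16) and Pck2 (0.46 ± 0.09), against 3 and 6 under the other scalings.

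Of the 13 mitochondrially encoded genes listed, 7 were tested. The other 6 had means under 1 TPM, with 5 of them at 0 in every library of the windows. Of the 7 tested, 6 (85.7%) rose on each of the 3 scales, with a median of 0.42. mt-Co1, a subunit of cytochrome oxidase, rose by 0.42 ± 0.07, with changes of 0.16 in control, 0.78 in Bmal1-null, 0.38 in Apc-min and 0.34 in double-mutant organoids. Of 48 nuclear genes of the respiratory chain 7 (14.6%, near the 10.5% of all genes tested) rose on the deposited scale, by 0.06 to 0.20, 9 in the quantile-normalized tables and none after median-of-ratios scaling, where the list's median turned from 0.01 to -0.02. Of 78 cytosolic ribosomal protein genes 2 (2.56%) rose, and none after median-of-ratios scaling. Of 22 tested genes of ribosome biogenesis 6 fell (27.3%, against 6.18% of all genes tested) and none rose (6 and 5 under the other scalings), led by Rrp9 (-0.39 ± 0.08) and Rrp12 (-0.34 ± 0.10), which process ribosomal RNA. Of 33 splicing factors 7 (21.2%) rose, led by the kinase gene Clk1 (0.43 ± 0.06), against 8 rises and 1 fall after median-of-ratios scaling.

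The share of TPM in mitochondrially encoded genes moved with the windows. It was 1.61% ± 0.32 (SD, n = 20) early and 2.12% ± 0.31 (SD, n = 21) late (permutation test within genotypes, 2-sided, adjusted p = 0.00014 over 7 library measures). The percent of reads left unmapped as too short was 4.89% ± 3.82 early and 2.86% ± 1.93 late (adjusted p = 0.0144), with late minus early differences of -1.55 points in control, -4.83 in Bmal1-null, 0.04 in Apc-min and -0.02 in double-mutant organoids. The part of these measures in the gene changes was not tested. Uniquely mapped reads ran from 28.8 M to 48.1 M (median 35.7 M), and they, the unique mapping rate, the mismatch rate, the slope of level on gene length and the share of the 100 highest genes did not pass the test (adjusted p = 0.105 to 0.98).

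The defining markers of epithelium were present throughout. The sum of 10 epithelial markers had medians of 18252 TPM early and 14585 TPM late in control, 18230 and 14322 TPM in Bmal1-null, 12311 and 11898 TPM in Apc-min and 16974 and 12685 TPM in double-mutant organoids. The windows overlapped in Apc-min organoids alone. Krt8 and Krt18 were the shared falls among the 10, and the median change over the 10 genes was -0.19 and -0.21 in control and Bmal1-null and 0.05 and 0.13 in Apc-min and double-mutant organoids. The summed fibroblast markers reached 2.90 TPM at most, with Dcn and Lum at 0 in 40 of 41 libraries. The summed immune markers were 13.7 to 17.2 TPM early and 28.4 to 43 TPM late in Apc-min organoids and at most 6.02 TPM in control. Most of that sum was Cd68 and Lyz2, while Ptprc, which marks blood cells, reached 0.52 TPM at most and Adgre1 was at 0 in 39 of 41 libraries.

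Of 16 tested core clock genes 4 (25%) rose, against 10.5% of all genes tested, and none fell, with 5 rises under each of the other scalings. Another 3 were called with mixed signs. The median change over the 16 was -0.12 in control, 0.12 in Bmal1-null, 0.56 in Apc-min and 0.36 in double-mutant organoids. In 7 of the 16 the change was more upward in the APCmin genotypes, against 12.6% of all genes tested. Among the 4 rises Npas2, a partner of BMAL1, rose by 0.51 ± 0.16, the repressor gene Nfil3 by 0.34 ± 0.06 and Arntl by 0.32 ± 0.07. Arntl was at 11.7, 12.2, 12.9, 14.2 and 18 TPM early and 11.3, 15.8, 16.2, 17.7 and 18.9 TPM late in control, with overlap. From the genotypes wild type for Apc alone none of Npas2, Nfil3 and Arntl was called, with changes of 0.17 to 0.19. With the pair of left-out libraries returned, Npas2 and Arntl were no longer called. Nr1d1, the REV-ERB alpha gene that BMAL1 activates, had changes of -0.52 in control and 0.07 in Bmal1-null organoids and no shared call.

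Of 12 tested glucocorticoid targets 3 had shared changes, 25% against 16.6% of all genes tested. The metallothionein genes Mt2 and Mt1 rose by 0.43 ± 0.07 and 0.37 ± 0.07, and Fkbp5, a chaperone of the glucocorticoid receptor, fell by 0.24 ± 0.07, on each of the 3 scales. Fkbp5 was at 168, 217, 228, 246 and 261 TPM early and 157, 191, 194, 208 and 209 TPM late in control. Its windows overlapped there, and its changes were -0.21, -0.19, -0.30 and -0.26 in control, Bmal1-null, Apc-min and double-mutant organoids. Of 11 heat shock genes Hspa1b and its near copy Hspa1a fell (18.2%, against 6.18% of all genes tested). They fell by 0.39 ± 0.05 and 0.25 ± 0.05, and reads could be split between them. Of 24 DNA replication genes 1 (4.17%) fell and of 20 mitosis genes 1 (5%) fell, near that share. After median-of-ratios scaling 4 and 5 fell. The median change over the DNA replication genes was -0.58 in Apc-min, 0.01 in control, 0.01 in Bmal1-null and -0.01 in double-mutant organoids. Over the mitosis genes it was -0.44 in Apc-min, -0.05 in control, 0.01 in Bmal1-null and 0.01 in double-mutant organoids.

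Whether the change differed between genotypes was tested directly. The F test of genotype by window called 1569 genes (14.1%), of which 241 were among the 1852 shared. The contrast by Bmal1 called 0 genes in limma (0%), with 867 (7.79%) at an unadjusted p under 0.05 and 29 with the library set as a block, but 0 with paired means of the library sets as units. The contrast by Apc called 1987 (17.8%), and 1405 of them changed more upward in the APCmin genotypes (12.6%). Among the shared genes 356 differed by Apc (19.2%): 300 rises and 39 falls were larger in the APCmin genotypes, and 8 rises and 9 falls in the genotypes wild type for Apc. The mean change was larger in the APCmin genotypes in 928 of 1164 rises and 447 of 688 falls, called or not. In 140 of the 1852 genes (7.56%) the largest of the 4 changes was no more than 2 times the smallest.

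**Figure D4:**
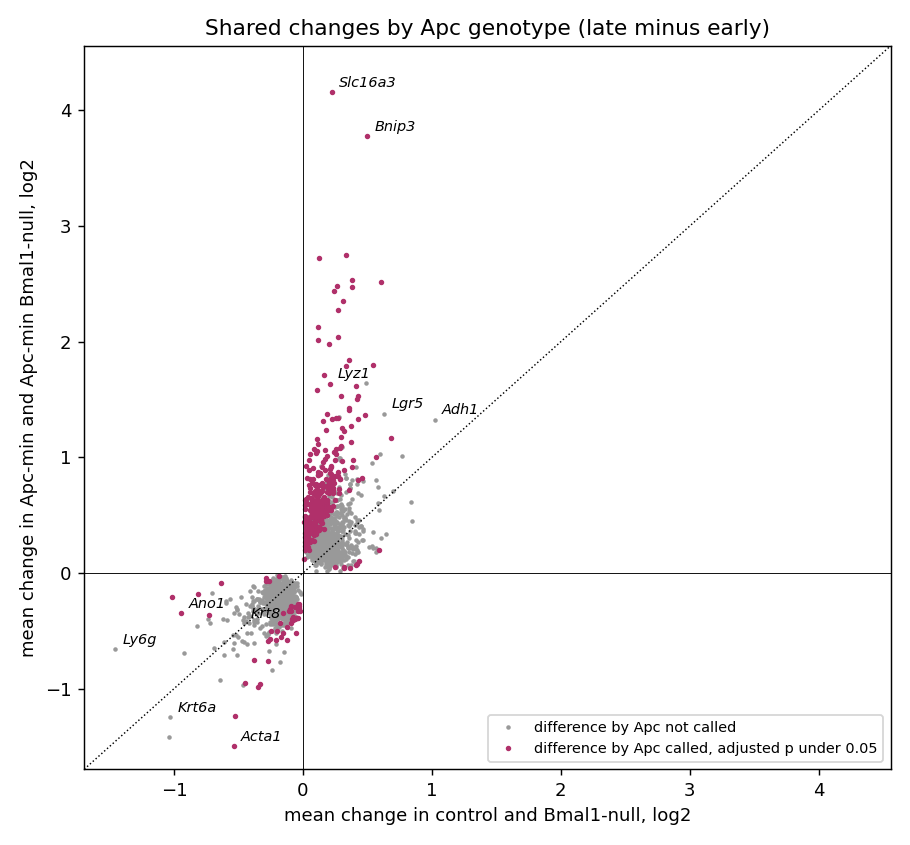
Mean late minus early change in control and Bmal1-null organoids (x axis) against that in Apc-min and double-mutant organoids (y axis), both on the log2 scale, 1 point for each of the 1852 shared genes. Coloured points are the 356 whose change differed by Apc and the dotted line marks equal change. Adh1 and Krt6a lie near the line, while Slc16a3 and Bnip3 lie far above it.

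Slc16a3 changed by 3.93 ± 0.59 more on the log2 scale in the APCmin genotypes (adjusted p = 1.52e-05), Bnip3 by 3.28 ± 0.57, Selenbp1 by 2.60 ± 0.40 and Adm by 2.22 ± 0.45. Lyz1 changed by 1.43 ± 0.18 more and Itln1 by 0.81 ± 0.15 more. Among the falls, Acta1 changed by -0.96 ± 0.21 more, Pmp22 by -0.71 ± 0.24, Pmepa1 by -0.64 ± 0.17 and Emp1 by -0.62 ± 0.17. Ano1 went the other way, with a smaller fall in the APCmin genotypes (0.60 ± 0.20).

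Of the 6 genes of lowest p in the F test, Pck2, a mitochondrial enzyme of glucose synthesis, was alone in having a shared change, with 0.03 and 0.02 in control and Bmal1-null organoids and 0.75 and 1.10 in the APCmin ones. Nlrp6, an inflammasome sensor of the gut epithelium, was at 0.44, 0.55, 0.95 and 1.21 TPM early and between 3.94 and 6.51 TPM late in Apc-min organoids, and between 159 and 249 TPM early and 159 and 221 TPM late in control. Its changes were -0.06, -0.06, 1.64 and 2.24 in control, Bmal1-null, Apc-min and double-mutant organoids. Chac1 of the amino acid response, the carbonic anhydrase gene Car9 and the galectin gene Lgals2 had the same order of signs. Ly6c1 changed by -0.70 and -0.92 in control and Bmal1-null and by 0.41 and 0.37 in the APCmin organoids.

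Some genes had a sizeable change even in the genotype that moved least, and these were named after their values were seen. Tmed6, a cargo receptor gene, rose by 0.92 ± 0.10, Selenop, a selenium carrier gene, by 0.88 ± 0.12 and the adenosine receptor gene Adora1 by 0.81 ± 0.09. Their smallest changes of the 4 were 0.65, 0.63 and 0.58, and their largest 1.44, 1.38 and 1.04. The change of Tmed6 was called as larger in the APCmin genotypes (limma adjusted p = 0.0499). Among the falls, Plaur, the urokinase receptor gene (-0.60 ± 0.07), and Lmna, the lamin A gene (-0.53 ± 0.05), had smallest changes of 0.51 and 0.44 in size.

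The 45 libraries of 30 to 40 h lie between the windows and were not used to call the changes, and they gave a slope over time in each gene. The slope was called in 66 of the 11135 genes (0.593%, with 993, or 8.92%, at an unadjusted p under 0.05), 44 of them rising (0.395%). Of these 66, 60 were among the 1852 shared genes and 6 among the other 9283. The slope was positive in 1142 of the 1164 rises and negative in 664 of the 688 falls, against a positive slope in 59.9% of all genes tested. Over all genes tested, 79.2% had the sign of their late against early difference. These libraries share lines, genotypes and library order with the windows. The count of called slopes lay between 22 and 108 when 1 library was left out; it was 22 without the higher-numbered 40 h library of double-mutant organoids and 108 without the lower-numbered 30 h library of Apc-min organoids.

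The slope of Krt8 was -0.024 ± 0.004 per h on the log2 scale (adjusted p = 0.00122), that of Anxa8 -0.058 ± 0.009 and that of Tmed6 0.063 ± 0.010. Anxa3 (-0.036 ± 0.007), Acta1 (-0.059 ± 0.011), Anxa1 (-0.039 ± 0.008), Plpp2 (-0.017 ± 0.003) and Anxa2 (-0.027 ± 0.005) also had called slopes. Slc16a3 had a slope of 0.18 ± 0.04 per h (adjusted p = 0.0273), that of control being -0.01 and that of double-mutant organoids 0.51. Adh1 had a slope of 0.07 that was not called (adjusted p = 0.143). By time point, the median rise in Apc-min organoids over their early mean was 0.12 at 30 h, 0.36 at 38 h and 0.42 at 46 h, and in control 0.04, -0.07 and 0.11. The median fall was -0.07, -0.15 and -0.29 in Apc-min and -0.02, -0.14 and -0.21 in control organoids at the same times.

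**Figure D5:**
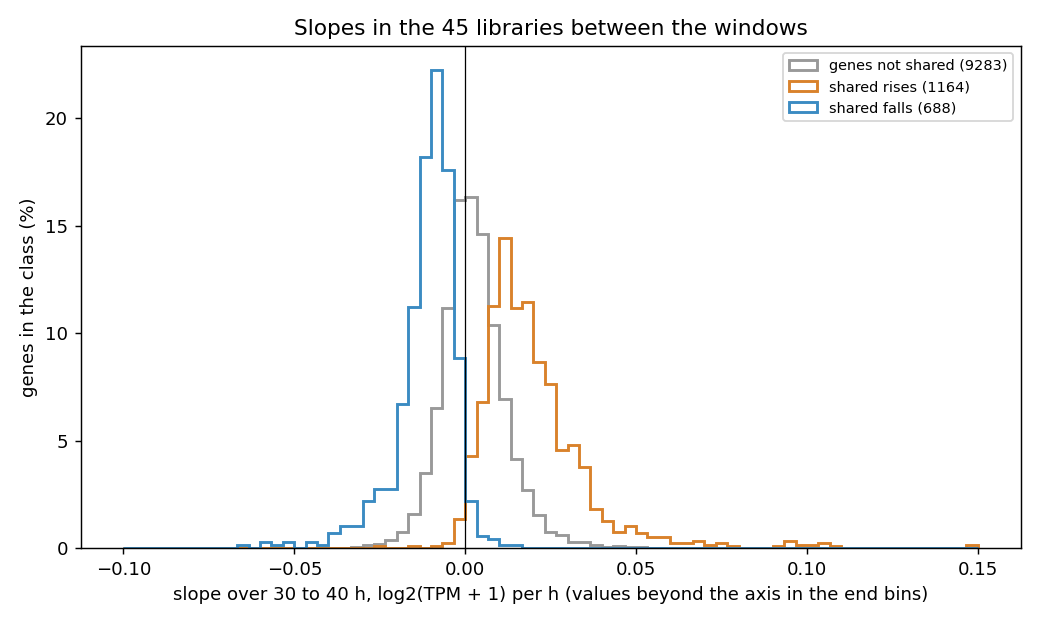
Distribution of the slope over 30 to 40 h on the log2(TPM + 1) scale per h (x axis) as the percent of genes in each class (y axis), for the 1164 shared rises, the 688 shared falls and the 9283 other genes. Slopes beyond the axis are counted in the end bins. Rises lie mostly above 0 and falls mostly below.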

How the data were processed

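RNA-seq of mouse intestinal organoids was used as deposited; no reads were processed. The authors deposited TPM in 4 tables, 1 per genotype. The tools named in the submitters' processing notes are RSEM 1.3.0 and STAR 2.5, with the build GRCm38. The score values are the authors' deposited quantile-normalized TPM tables, whose columns name genotype and time but no library, so that all 28 h columns of the APCmin genotypes were left out there. Read counts and percent values come from the authors' alignment log of each library, per the file headers. The labels name 96 libraries and the TPM tables hold 88. All 55536 gene IDs had a symbol in GENCODE M21, which also gave the gene lengths.

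Tests used limma (version 3.58.1 in R 4.3.3, moderated, with a variance trend) on log2(TPM + 1), over genes whose mean reached 1 TPM in every genotype, with genotype as a block and Benjamini-Hochberg adjustment over all genes tested. Errors are standard errors unless SD is given. Library measures were compared by a permutation test with 100000 resamples within genotypes. The fit was checked on simulated data. Because 1 is added before the logarithm, a fold on the log2(TPM + 1) scale understates changes of low genes. TPM also keeps no read count. Promoter sequences are from RefSeq (GRCm38.p6), matched by symbol.

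Genes were named by a rule: the 12 largest shared rises and falls with a mean of 5 TPM or more, up to 4 members of each of 44 gene lists with the largest shared change, the 6 of lowest p in the F test (5 TPM or more), all without predicted genes in the first and last case, and core clock genes. Further list members, and genes said to be chosen after their values were seen, fall outside it, and some genes it names are not reported here. The members, windows and lists were chosen with earlier results of these data known. The labels do not number replicates; library sets were formed from the lower-numbered and higher-numbered library of each time point. Alternatives covered the pseudocount, filters, scaling, library sets, windows, genotypes and each library left out. The alternatives without each time point or genotype, and the paired set means for differences between genotypes, were added after seeing the data.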

Additional observations from a re-analysis of the deposited data

Results flagged for a closer look

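Single libraries stood apart from the rest of their group in 28 of 240 groups of gene, genotype and window (11.7%). In these the gap from the highest or lowest library to the next was large against the whole range of the group. The limit used would mark about 1 in 20 independent groups by chance. The groups are not independent, because the 30 genes share the same 41 libraries, so the count cannot be weighed against that rate. The lower-numbered 26 h library of Apc-min organoids was the highest of the 4 early ones for Bnip3 (281 TPM), AA467197 (203 TPM), Ankrd37 (90.9 TPM), Selenbp1 (103 TPM), Adm (32.5 TPM), Vegfa (96.4 TPM), Egln3 (304 TPM), Ndrg1 (146 TPM), Adh1 (11.8 TPM) and Car9 (78.9 TPM), and the lowest for Ly6g (6.20 TPM) and Anxa8 (72.7 TPM). It is the 1 lower-numbered library among the early Apc-min ones. A 26 h library of double-mutant organoids was the highest early one for Slc16a3 (16.6 TPM), Bnip3 (16.6 TPM), Ak4 (8.20 TPM) and Egln3 (30.9 TPM). A 42 h library of that genotype was the lowest late one for AA467197 (8.86 TPM) and Selenbp1 (21.9 TPM) and the highest for Emp1 (85.9 TPM), and a 28 h library the lowest early one for Capn2 (56.1 TPM).

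A 46 h library of control organoids was the lowest late one for Selenbp1 (229 TPM), Krt6a (0.14 TPM), Capn2 (12.8 TPM) and Nlrp6 (159 TPM). A 28 h library of Bmal1-null organoids was the lowest early one for Ly6g (8.06 TPM), Acta1 (121 TPM) and Pmepa1 (11.8 TPM). A 46 h library of Apc-min organoids was the lowest late one for Anxa8 (53.7 TPM).

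The change over time differed by Apc genotype, by limma's contrast, in 22 of the 30 genes looked at, against 17.8% of all genes tested. These 30 were the 12 largest shared rises, the 12 largest shared falls and the 6 genes of lowest p in the F test. All were chosen from these same libraries, the 6 by differences between genotypes, so the count does not describe genes at large. As change in the APCmin genotypes minus change in those wild type for Apc, on the log2 scale, the values were 3.93 for Slc16a3, 3.28 for Bnip3, 1.91 for AA467197, 2.15 for Ankrd37, 2.09 for Ak4 and 2.60 for Selenbp1. They were 2.22 for Adm, 2.20 for Vegfa, 2.05 for Egln3, 2.00 for Ndrg1 and 1.26 for Rgs11. Among the falls they were -0.96 for Acta1, -0.71 for Pmp22, -0.64 for Pmepa1, -0.62 for Emp1 and 0.60 for Ano1. Among the genes of lowest p in the F test they were 1.99 for Nlrp6, 1.20 for Ly6c1, 0.83 for Lgals2, 1.96 for Chac1, 0.90 for Pck2 and 1.46 for Car9.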

How the results depend on the processing

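Over 16 other settings of the fit, apart from single libraries left out, the count of genes that changed alike lay between 958 and 2808, against 1852. It was 958 (584 rises and 374 falls) with paired means of library sets as units, and 2808 (2033 rises) from the APCmin genotypes alone. Rises numbered 769 with a mean of 5 TPM or more and 765 with windows of 2 time points. Falls numbered 1164 after median-of-ratios scaling and 1135 with each library's slope of level on gene length as a covariate. Without 1 library the count lay between 1665 and 2028 (959 to 1352 rises, 584 to 831 falls), without 1 genotype between 1515 and 2163, and without 1 time point between 1270 and 1614. The cause of these shifts was not tested.

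Within genotypes, control gave 32 genes after median-of-ratios scaling, Bmal1-null 1588, and the library set as a replicate block gave 137 in control and 3515 in Apc-min organoids. With that block the F test called 3142 genes, the contrast by Bmal1 29 and the slope over 30 to 40 h 410, but with paired means of the sets as units the F test called 1269 and the contrast by Bmal1 0. With the pair of left-out libraries the contrast by Apc called 970. Deviations from the mean of the genotype and window were correlated between the windows. For libraries of 1 set the average was 0.60 in Apc-min, 0.26 in double-mutant, 0.24 in control and 0.08 in Bmal1-null organoids. For different sets it was -0.59, -0.25, -0.19 and -0.08, which the centring on those means makes nearly mirror the first values. The second values are thus not a separate observation. The labels do not say what a set shares.

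Without 1 library, control gave 0 to 16 genes, Bmal1-null 374 to 1785, Apc-min 3 to 1785 and double mutants 879 to 2187. In control the count was 0 without the lower-numbered library of 24, 26, 42, 44 or 46 h or the higher-numbered one of 26 or 46 h. In Bmal1-null it was 608 and 685 without the lower-numbered library of 26 and 28 h, 1785 without the higher-numbered one of 28 h, 641 and 420 without the lower- and higher-numbered ones of 44 h, and 376 and 374 without the higher-numbered ones of 42 and 46 h. In Apc-min it was 3, 261 and 53 without the higher-numbered library of 24, 26 and 28 h, 1785 without the lower-numbered one of 26 h, 400 and 338 without the lower-numbered ones of 42 and 44 h, and 387 without the higher-numbered one of 46 h. In double mutants it was 879 without the lower-numbered 24 h and 2187 without the higher-numbered 28 h library. The F test gave 863 to 2758, being 863 and 961 without the higher-numbered Apc-min library of 24 and 28 h and 2758 without the lower-numbered one of 26 h. The contrast by Bmal1 gave 0 to 7, that by Apc 1509 to 2661, and the slope 22 to 108, being 29, 33 and 40 without the higher-numbered 30 h Apc-min and the lower-numbered 30 and 40 h double-mutant libraries.

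Of 132 genes followed 115 had a shared change, and 39 of these stayed called in the same direction under each alternative that tested them; 102 of the 132 passed the filter of 5 TPM. From the genotypes wild type for Apc alone 55 lost their call, and 5 turned: Nlrp6 to -0.056, Lgals2 to -0.11, Chac1 to -0.11, Car9 to -0.092 and Per3 to -0.014. Genes near 0 TPM are limited by depth.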

Other observations

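Over all genes tested 10.5% rose and 6.18% fell, and the lists below held 1 to 3 shared changes each. B2m, the light chain of antigen presentation, was the 1 of 12 tested interferon and antigen presentation genes to rise, by 0.31 ± 0.05, and its windows were apart in Bmal1-null organoids (308 to 364 TPM early, 437 to 488 TPM late). The nuclear RNAs Neat1 and Malat1 rose by 0.54 ± 0.10 and 0.45 ± 0.13, of 10 tested in their list. Of 16 genes of the unfolded protein response Dnajb9 rose by 0.39 ± 0.08 and Creld2 fell by 0.15 ± 0.03. Of 14 genes of the FOXO and insulin pathway Deptor, an inhibitor of mTOR, rose by 0.37 ± 0.07 and Irs2 by 0.30 ± 0.09. Of 19 p53 targets Btg2 rose by 0.43 ± 0.10 and Phlda3 fell by 0.15 ± 0.04.

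Of 14 NRF2 targets Nqo1 fell by 0.53 ± 0.15 and Osgin1 by 0.20 ± 0.05, and of 20 cholesterol synthesis genes 2 fell, among them Mvk by 0.17 ± 0.04. Of 7 lipid absorption genes Apoc2 rose by 0.46 ± 0.13, Mttp by 0.27 ± 0.05 and Scarb1 fell by 0.37 ± 0.10. Espn, which bundles actin in microvilli, was the 1 of 12 microvillus genes to rise, by 0.59 ± 0.13, and Ogt the 1 of 20 chromatin regulators, by 0.46 ± 0.09. Espn was not shared after median-of-ratios scaling. Vwf, the 1 tested of 5 endothelial markers, rose by 0.48 ± 0.15 and reached 10.1 TPM at most. Cdh5 reached 15.7 TPM and Tek 9.37 TPM, while Pecam1 reached 0.53 TPM and Kdr 0.02 TPM.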
